A study of Mus musculus with 18 samples.

Results

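The T cell receptor complex and lineage genes were 10 genes: Cd3d, Cd3e, Cd3g and Cd247 of the receptor complex, the co-receptor genes Cd4, Cd8a and Cd8b1, the kinase genes Lck and Zap70, and Foxp3. They were taken by name, and all probes whose RefSeq accession belongs to one of them were used, which gave 13 of the 27235 named probes (20660 gene symbols) on the array. Where a gene had more than 1 probe, the probe with the highest mean intensity stands for it, and the other probe is described beside it. Lung RNA came from 18 adult male MutaTMMouse, a transgenic mutation-reporter strain on a BALB/C-DBA/2 background, aged about 12 weeks. Mice were gavaged daily for 28 days with olive oil alone (5 mice, the vehicle group) or with the 4PAH-Mix in olive oil at 12.5 (low, 4 mice), 25 (medium, 5 mice) or 50 (high, 4 mice) mg BaP equivalents/kg-bw/day, and lung was taken 72 h after the last dose. The 4PAH-Mix holds benzo(a)pyrene (BaP), benz(a)anthracene, benzo(b)fluoranthene and chrysene, polycyclic aromatic hydrocarbons (PAHs) in the proportions of a coal tar extract. Each mouse had its own array, with lung RNA in Cy5 and a reference RNA pooled from 11 mouse cell lines in Cy3, and values are log2 ratios of lung over reference. Such ratios compare mice for 1 probe, and not 1 gene with another.

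T cells recognise peptides on other cells through the T cell receptor, whose antigen-binding chains are joined by the invariant CD3 and zeta chains that carry the signal inward. The co-receptors CD4 and CD8 bind class II and class I molecules and bring the kinase LCK to the complex, where it phosphorylates the invariant chains so that ZAP70 can bind. FOXP3 is the transcription factor of regulatory T cells. In the lung these genes can report on resident and circulating T cells, and the part of other cells in their values was not tested. In whole lung RNA, fewer T cells and less RNA per T cell cannot be told apart.

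The comparison asked whether the mixture altered the RNA of these genes at any dose. A probe was called at a Benjamini-Hochberg adjusted p of at most 0.05 in limma's moderated test over 55681 probes together with a change of at least 1.5-fold. By this rule 0 of the 10 genes were called at any of the 3 doses, where in turn 0.0898%, 0.726% and 1.2% of all probes were called. Limma's unadjusted p was under 0.05 for 1 of the 10 genes at the low dose, against 8.01% of all probes, for 2 at the medium dose, against 15.3%, and for 2 at the high dose, against 15.7%. The genes behind these counts were Cd8a at the low dose, Cd4 and Cd8a at the medium dose, and Cd4 and Cd8a at the high dose. At the high dose 5 genes were above and 5 below vehicle (50.8% of all probes were above), with a median log2 change of -0.01 and a range of -0.26 to 0.21. That range lay within the central 95% of all probes, which ran from -0.40 to 0.34.

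On ratios without background subtraction, the intervals limit how large an unseen change could be. At the high dose the 95% intervals of 10 of 10 genes lay within 1.5-fold in both directions. At the low and medium doses this held for 9 of 10, and the exception was Cd3d, whose interval reached 1.60-fold at the low and 1.70-fold at the medium dose. The median change of the 10 genes was 0.11 at the low and 0.10 at the medium dose, with 6 genes above vehicle in each (51% and 51.3% of all probes were above). These limits do not hold for all dim probes under other processing: with the scanner software's ratio the high-dose difference was -1.46 for Cd247 (SE 0.51) and 0.85 for Foxp3 (SE 0.62). All dose comparisons share the vehicle mice.

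**Figure D1:**
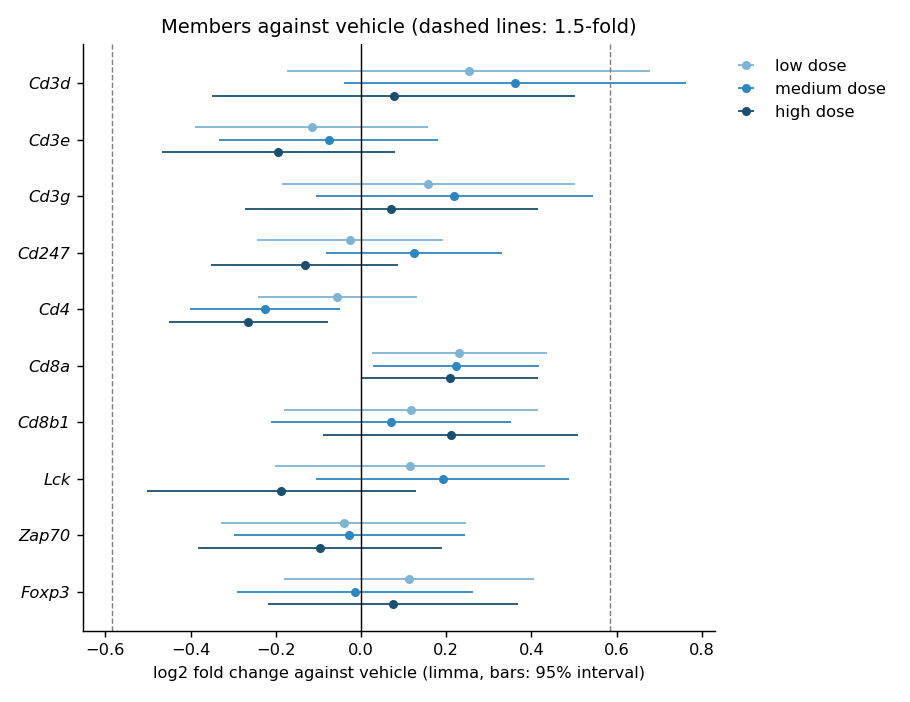
Log2 fold change of each of the 10 genes against vehicle at the low, medium and high dose (x axis, points with 95% intervals from limma, one row per gene; dashed lines mark 1.5-fold). At the high dose every interval lies between the dashed lines, Cd4 lies left of 0 and Cd8a right of it, and Cd3d at the low and medium dose reaches past the right line.

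The 3 CD3 genes encode the delta, epsilon and gamma chains that pair up beside the antigen-binding chains. In the mouse they lie together on chromosome 9 (GRCm38.p6: Cd3g 44969572-44980431, Cd3d 44981769-44987052, Cd3e 44998735-45009663), and Cd3g and Cd3d start 1355 bases apart and are read in opposite directions. Their promoter windows are printed here because the 3 genes varied together from mouse to mouse once slide means were removed, as described further on. The windows run from 250 bases before to 50 bases after the RefSeq start in GRCm38.p6, 5′ to 3′ on the gene's strand, and capitals mark the ETS core GGAAGT or its reverse complement ACTTCC.
Cd3g, chr9:44980382-44980681, minus strand: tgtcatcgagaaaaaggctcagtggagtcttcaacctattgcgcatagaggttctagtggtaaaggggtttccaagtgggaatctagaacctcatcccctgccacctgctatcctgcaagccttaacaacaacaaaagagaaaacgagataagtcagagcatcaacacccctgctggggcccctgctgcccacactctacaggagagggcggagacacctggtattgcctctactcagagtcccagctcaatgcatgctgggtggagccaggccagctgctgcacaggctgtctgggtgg
Cd3d, chr9:44981536-44981835, plus strand: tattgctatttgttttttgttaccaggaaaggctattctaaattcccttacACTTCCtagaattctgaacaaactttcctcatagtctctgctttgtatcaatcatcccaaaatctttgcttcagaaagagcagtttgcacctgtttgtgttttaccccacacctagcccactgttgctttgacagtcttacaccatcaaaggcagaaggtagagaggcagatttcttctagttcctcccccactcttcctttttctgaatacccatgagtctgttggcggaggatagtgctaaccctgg
Cd3e, chr9:45009562-45009861, minus strand: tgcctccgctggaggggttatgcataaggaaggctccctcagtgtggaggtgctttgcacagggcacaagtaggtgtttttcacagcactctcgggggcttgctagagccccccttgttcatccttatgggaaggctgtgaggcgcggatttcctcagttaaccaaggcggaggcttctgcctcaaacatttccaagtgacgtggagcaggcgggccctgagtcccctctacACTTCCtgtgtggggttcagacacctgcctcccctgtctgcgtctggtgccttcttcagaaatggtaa
The Cd3d and Cd3e windows each hold 1 match and the Cd3g window none. Of the 10 genes, 8 had a window in the RefSeq table, and 5 of these 8 held the ETS core (Cd247, Cd3d, Cd3e, Lck and Zap70), against 26.5% of the 27025 genes with windows. The core of the aryl hydrocarbon receptor site, GCGTG or CACGC, the receptor that binds many PAHs, stood in windows of 3 of the 8 genes (Cd8a, Foxp3 and Zap70), against 35.2% of genes. The RUNX core TGTGGT or ACCACA stood in those of 2 (Lck and Zap70), against 18.9%. Genes with more than 1 start have more than 1 window, and a match is a description of the letters only.

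Cd3d had the widest spread of the 10 genes, with a standard deviation among mice of a group of 0.36. Its log2 ratios were 2.81, 2.71, 2.33, 2.18 and 2.52 in the vehicle mice, 2.18, 3.39, 2.46 and 3.02 at the low dose, 2.60, 3.21, 2.42, 2.83 and 3.30 at the medium dose, and 2.58, 2.57, 2.78 and 2.41 at the high dose. The high-dose mice all lay inside the vehicle range, while 2 low-dose and 3 medium-dose mice lay above it. The difference at the medium dose was 0.36 (SE 0.19, limma adjusted p = 0.397). At the high dose it was 0.08 (SE 0.20, adjusted p = 0.921).

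Cd3g showed the same order of group means as Cd3d. Its log2 ratio was -0.70 ± 0.27 in vehicle (SD, n = 5), -0.54 ± 0.33 at the low (n = 4), -0.48 ± 0.27 at the medium (n = 5) and -0.63 ± 0.27 at the high dose (n = 4). All groups overlapped, with vehicle mice from -0.96 to -0.38 and high-dose mice from -0.99 to -0.37. The high-dose difference was 0.07 (SE 0.17, limma adjusted p = 0.907).

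Cd3e was below its vehicle mean at each dose, by less than the spread. The vehicle mice were close together at -0.78, -0.80, -0.78, -0.74 and -0.61, and the high-dose mice spread from -1.18 over -1.07 and -0.94 to -0.55. Of the 4 high-dose mice, 3 lay below and 1 above all vehicle mice. The difference of -0.19 (SE 0.13) had a limma adjusted p of 0.539, and its 95% interval ran from -0.47 to 0.08.

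Cd247, which encodes the zeta chain, was measured near background, with Cy5 well above background on 13 of 18 arrays and Cy3 on none. Its group means were 0.33 ± 0.16, 0.31 ± 0.22, 0.46 ± 0.13 and 0.20 ± 0.15 from vehicle to high dose (SD, n = 5, 4, 5 and 4). The high-dose difference was -0.13 (SE 0.11, limma adjusted p = 0.626). With the scanner software's ratio, which replaces both the background treatment and the normalization, the same difference was -1.46 (adjusted p = 0.135), and with normexp background correction alone it was -0.10. Which step moved the value was not tested.

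**Figure D2:**
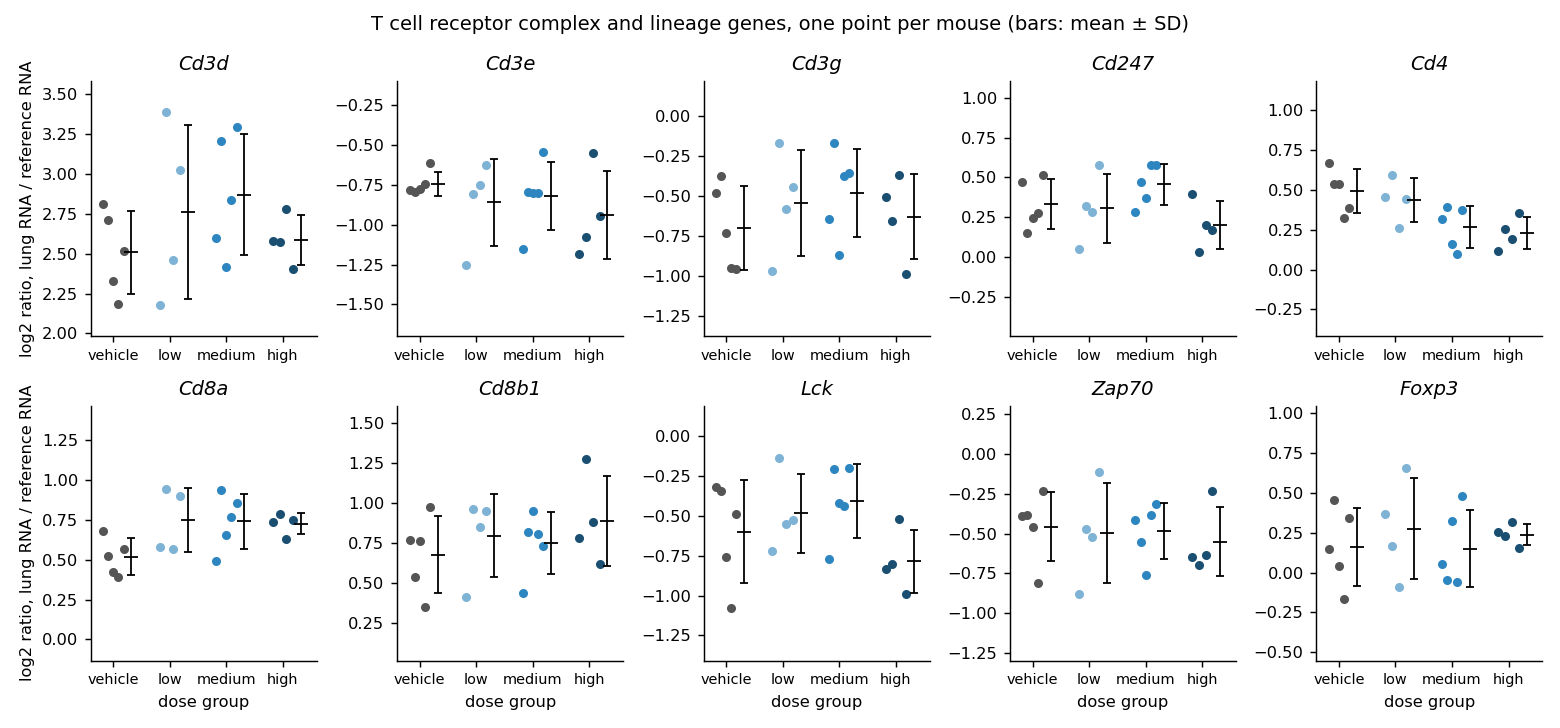
Log2 ratio of lung RNA over reference RNA for each of the 10 genes (y axis, one panel per gene, all panels spanning the same number of log2 units) in each mouse of the 4 dose groups (x axis), with the mean ± SD beside the points. The high-dose points of Cd4 sit low and those of Cd8a high against the vehicle points, the high-dose points of Cd3e lie on both sides of the vehicle points, and in the other panels the groups overlap.

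Cd4 had the smallest spread of the 10 genes, 0.13, and was lower at the higher doses without being called. It encodes the co-receptor of helper T cells and is also carried by some dendritic cells and macrophages of the mouse. On its brighter probe the log2 ratios were 0.67, 0.54, 0.54, 0.32 and 0.39 in vehicle, 0.46, 0.59, 0.26 and 0.44 at the low, 0.32, 0.39, 0.16, 0.10 and 0.37 at the medium, and 0.11, 0.25, 0.19 and 0.35 at the high dose. Of the 4 high-dose mice 3 lay below all vehicle mice, as did 3 of the 5 medium-dose mice, and the groups overlapped in both comparisons. The differences were -0.06 at the low dose (SE 0.09, limma adjusted p = 0.933), -0.22 at the medium dose (SE 0.08, adjusted p = 0.172) and -0.26 at the high dose (SE 0.09, adjusted p = 0.114), the last a level 0.833 times that of vehicle (95% interval 0.731 to 0.948). A two-sided exact permutation test of the mice gave p = 0.0397 at the medium and p = 0.0317 at the high dose, where the smallest p these group sizes allow is 0.00794. These 2 p-values are not adjusted for the number of genes.

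The linear dose trend gave -0.28 for Cd4 from vehicle to the highest dose (SE 0.09, limma adjusted p = 0.0692), the lowest adjusted p among the 10 genes, of which 0 were called in the trend, against 1.12% of all probes, and 1, Cd4 itself, had an unadjusted p under 0.05, against 16.1%. The slope was positive for 5 of the 10 genes, as for 50.7% of all probes. Within the 3 slides, each of which held all 4 groups with 1 or 2 mice of each, the high-dose difference of Cd4 was -0.42, -0.24 and -0.04. With the slide as a block the difference was -0.29 and its adjusted p 0.0395, and with the scanner software's ratio -0.32 and 0.0410, in both under the 1.5-fold limit. It shrank to -0.07 (adjusted p = 0.976) when arrays were only centred on their medians in place of loess. The second Cd4 probe was well above background on 2 of 18 arrays and differed by -0.03 at the high dose, and the mean of both probes by -0.15. On every slide each dose group had its own column of arrays, so that column and dose cannot be told apart.

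Cd8a, the alpha chain of the co-receptor of cytotoxic T cells, was higher at each dose by a similar amount, again without being called. Its log2 ratios were 0.68, 0.52, 0.43, 0.39 and 0.57 in vehicle, 0.58, 0.94, 0.57 and 0.90 at the low, 0.49, 0.94, 0.65, 0.77 and 0.85 at the medium, and 0.73, 0.79, 0.63 and 0.75 at the high dose. Of the high-dose mice 3 of 4 lay above all vehicle mice, of the medium-dose mice 3 of 5 and of the low-dose mice 2 of 4. The differences were 0.23 (limma adjusted p = 0.555), 0.22 (adjusted p = 0.234) and 0.21 (adjusted p = 0.309) at the low, medium and high dose, with SEs of 0.10, 0.09 and 0.10. The exact permutation test gave p = 0.0952, 0.0556 and 0.0317 in order of rising dose, not adjusted for the number of genes. Within slides the high-dose difference was 0.16, 0.22 and 0.18.

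The Cd8a probe was dim, with Cy5 well above background on 16 of 18 arrays and Cy3 on none, and with the scanner software's ratio its high-dose difference was 0.52. The second Cd8a probe, well above background on 2 of 18 arrays, gave 0.22, 0.21 and 0.25 at the 3 doses, with a limma adjusted p of 0.0868 at the high dose. Cd8b1, the beta chain, was measured on all 18 arrays and was 0.68 ± 0.24 in vehicle and 0.89 ± 0.28 at the high dose, a difference of 0.21 (SE 0.14, adjusted p = 0.543). Its high-dose mice ranged from 0.62 to 1.28 and overlapped the vehicle mice, from 0.35 to 0.97.

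The distance between the Cd4 and Cd8a log2 ratios in each mouse was chosen for description after their values were seen, and no test was made of it. It averaged -0.03 ± 0.11 in vehicle (SD, n = 5), -0.31 ± 0.14 at the low (n = 4), -0.47 ± 0.18 at the medium (n = 5) and -0.50 ± 0.10 at the high dose (n = 4). The high-dose mice, from -0.62 to -0.40, did not overlap the vehicle mice, from -0.18 to 0.11. At the low and medium doses 1 mouse each (low 6 at -0.13 and medium 11 at -0.17) lay within the vehicle range. The high-dose shift of -0.47 became -0.26 with median centring, -0.24 with the dimmer Cd4 probe and -0.84 with the scanner software's ratio. The zero of this scale is set by the reference RNA and does not mark equal amounts of both RNAs.

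**Figure D3:**
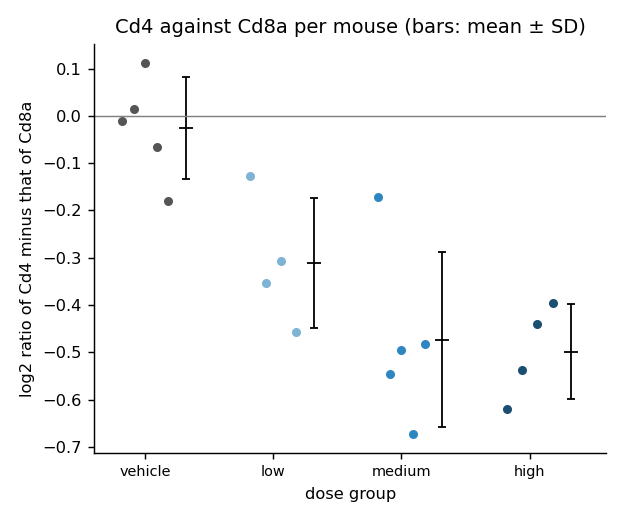
Log2 ratio of Cd4 minus that of Cd8a (y axis) in each mouse of the 4 dose groups (x axis), with the mean ± SD beside the points. All high-dose points lie below all vehicle points, and 1 low-dose and 1 medium-dose point lie within the vehicle range.

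Other cells that could carry Cd4 or Cd8a were followed by a list of their markers. Of 11 measured myeloid and dendritic cell markers 5 had higher and 6 had lower values in the high-dose group and 0 were called, with limma's unadjusted p under 0.05 for 4. Among them Flt3, a receptor of dendritic cell precursors, differed by -0.41 (adjusted p = 0.0215, under the fold limit), Siglech, a plasmacytoid dendritic cell marker, by -0.43 (adjusted p = 0.0588) and Marco, a macrophage receptor, by 1.25 (adjusted p = 0.152). Each marker is represented here by its brightest probe. By its own test, the study lists another Siglech probe as differentially expressed, lower at the medium and high dose. The mean change of this list per mouse ran from -0.19 to 0.18 in vehicle and from -0.10 to 0.21 at the high dose. The part of these cells in the Cd4 values was not tested.

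Lck is the kinase brought to the complex by CD4 and CD8, and it has a pair of promoters. Both are printed here because Lck followed Cd3d and Cd3g more closely from mouse to mouse than Zap70 did. The windows and capitals are as above.
Lck upstream start, chr4:129573592-129573891, minus strand: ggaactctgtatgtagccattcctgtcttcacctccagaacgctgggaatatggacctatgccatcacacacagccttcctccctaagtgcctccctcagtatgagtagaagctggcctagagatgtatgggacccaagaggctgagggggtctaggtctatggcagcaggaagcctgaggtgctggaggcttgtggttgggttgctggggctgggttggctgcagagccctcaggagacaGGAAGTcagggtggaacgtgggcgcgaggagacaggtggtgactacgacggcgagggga
Lck downstream start, chr4:129558323-129558622, minus strand: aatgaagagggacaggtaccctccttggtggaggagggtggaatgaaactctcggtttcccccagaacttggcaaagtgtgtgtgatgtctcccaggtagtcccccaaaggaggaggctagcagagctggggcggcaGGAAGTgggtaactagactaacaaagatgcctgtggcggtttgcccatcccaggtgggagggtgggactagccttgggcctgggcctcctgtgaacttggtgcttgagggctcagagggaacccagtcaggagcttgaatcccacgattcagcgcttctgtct
Each window holds 1 ETS core. The log2 ratios of Lck were -0.32, -0.35, -0.76, -1.08 and -0.49 in vehicle, -0.72, -0.14, -0.55 and -0.52 at the low, -0.77, -0.21, -0.42, -0.44 and -0.20 at the medium, and -0.83, -0.80, -0.52 and -0.99 at the high dose. The high-dose mice all lay inside the vehicle range. The high-dose difference was -0.19 (SE 0.15, limma adjusted p = 0.634), and within slides it took both signs, at -0.48, 0.40 and -0.50.

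Neither Zap70 nor Foxp3 differed beyond the spread between mice. Zap70, the kinase that binds the phosphorylated chains, was -0.46 ± 0.22 in vehicle and -0.55 ± 0.22 at the high dose, a difference of -0.10 (SE 0.14, limma adjusted p = 0.828), and its second probe gave 0.05. Foxp3 was well above background in Cy5 on 13 of 18 arrays and was 0.16 ± 0.24 in vehicle and 0.24 ± 0.07 at the high dose, a difference of 0.08 (SE 0.14, adjusted p = 0.880). With the scanner software's ratio the Foxp3 difference was 0.85 (adjusted p = 0.551).

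The high and low doses were also compared directly. Of the 10 genes 9 were lower at the high than at the low dose, where 49.9% of all probes were higher, with a median of -0.08 and a range from -0.30 for Lck (SE 0.16, limma adjusted p = 0.787) to 0.09 for Cd8b1. None was called, against 0.0449% of all probes, and limma's unadjusted p was under 0.05 for Cd4 alone (-0.21, adjusted p = 0.715), against 6.71% of probes. The second probes of Cd8a and Zap70 were higher, at 0.03 and 0.08, and that of Cd4 was lower, at -0.07. The 10 genes also varied partly in step between mice, as given below, so that they are not independent counts.

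Mice of the same group also differed from each other, partly in step. With group means removed, 42 of 45 gene pairs correlated positively over the 18 mice, with a median Pearson r of 0.38. Permuting mice within groups, 5 pairs passed an adjusted p of 0.05 over the 45 pairs. Cd3d and Cd3g had r = 0.86 (Spearman rho 0.84, permutation p = 6e-05 and 0.00016, adjusted 0.0013 and 0.0036), Cd3d and Lck r = 0.80 (rho 0.79, permutation p = 4e-05 and 8e-05, adjusted 0.0013 and 0.0036). Cd3d and Cd8a had r = 0.83 (rho 0.82, adjusted permutation p = 0.029 and 0.035), Cd3g and Lck r = 0.74 (rho 0.74, adjusted permutation p = 0.029 and 0.035) and Cd8a and Lck r = 0.68 (rho 0.66, adjusted permutation p = 0.029 and 0.057). Without the 2 mice farthest from the median of the first gene these r were 0.80, 0.76, 0.78, 0.79 and 0.63, and with slide means removed as well 0.95, 0.80, 0.79, 0.75 and 0.69.

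For Cd3e the values depended on the slide. Cd3e and Cd3d had r = 0.51 (adjusted permutation p = 0.19) and Cd3e and Cd3g r = 0.36 (adjusted permutation p = 0.36), which were 0.90 and 0.85 once slide means were removed. Cd4 had r = 0.54 with Cd3d (adjusted permutation p = 0.18) and -0.06 with Cd3e (adjusted permutation p = 0.84), and with slide means removed 0.40 and 0.35. Foxp3 had no r above 0.38 with any other of the 10 genes, and none above 0.37 with slide means removed. All values of a mouse share 1 RNA sample and 1 array.

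**Figure D4:**
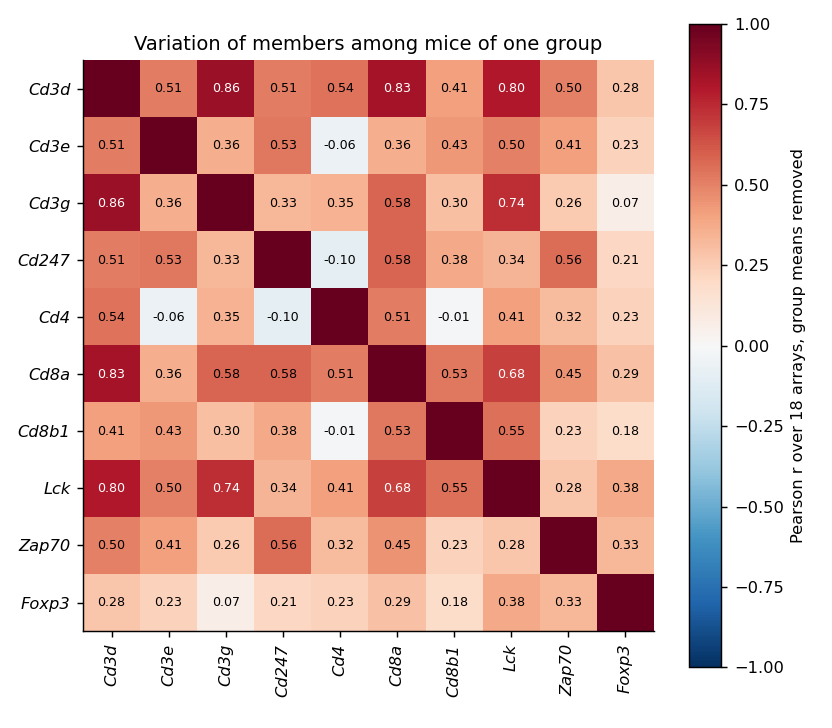
Pearson r between each pair of the 10 genes over the 18 arrays after removing group means (colour scale from -1 to 1, value in each cell). The pairs among Cd3d, Cd3g, Cd8a and Lck range from 0.58 to 0.86, and the row of Foxp3 holds none above 0.38.

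The mean of the standardised values of Cd3d, Cd3e and Cd3g was lowest in low 6 (-1.60) and highest in medium 15 (1.31) and low 7 (1.20), so that the low-dose group held mice near both ends. The vehicle mice ran from -0.76 to 0.34 and the high-dose mice from -0.92 to 0.81. Of 13428 genes compared over the 18 arrays, the 10 whose log2 ratios were most like this mean were Skap1 (Pearson r 0.86), Sit1 (0.84), Cd52 (0.81), Hcst (0.80), Ptprcap (0.80), Add2 (0.78), Rps16 (0.77), Asprv1 (0.77), Rps29 (0.77) and Arhgdib (0.76). They were picked as the highest of all these genes and carry no test.

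The other genes of the pathway were taken from a list of receptor signalling and costimulation genes. Of its 33 genes 21 lay above and 12 below vehicle at the high dose, with a median of 0.06 and 0 called, and limma's unadjusted p was under 0.05 for 5. At the medium dose 26 were higher and the median was 0.15. Limma's unadjusted p was under 0.05 for 11 of the 33 there, against 15.3% of all probes, and 1 was called. That gene was Nfatc1, a calcium-driven transcription factor that other lung cells also express, which fell by 0.61 at the medium dose (limma adjusted p = 0.0034). At the high dose Nfatc1 differed by -0.55 (adjusted p = 0.0092), under the fold limit. Prkcq, the kinase PKC theta of the T cell receptor pathway, which was named after its values were seen, differed by 0.52 (adjusted p = 0.0294), also under the limit. At the low dose 0 were called, and the unadjusted p was under 0.05 for 2.

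Of 20 T lineage factors and homing receptors 12 had higher and 8 had lower means in the high-dose group than in vehicle, and 2 were called as lower. S1pr1, a sphingosine-1-phosphate receptor used by lymphocytes to leave tissue and abundant on endothelium, fell from 4.11 ± 0.14 to 3.40 ± 0.17, by 0.71 (limma adjusted p = 0.0001). Cxcr6, a homing receptor of resident T cells and natural killer T cells, fell by 0.62 (adjusted p = 0.0315). At the low and medium doses 0 of the 20 were called, with limma's unadjusted p under 0.05 for 4 and 7. Of 9 regulatory T cell genes 5 lay above and 4 below vehicle at the high dose, 0 were called and the unadjusted p was under 0.05 for 2. These were Ikzf4, an Ikaros-family factor, at -0.53 (adjusted p = 0.0283) and Lrrc32, which anchors latent TGF-beta and is also found on endothelium, at -0.31 (adjusted p = 0.0395). Ikzf2, another Ikaros-family factor, differed by 0.15 (adjusted p = 0.610).

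**Figure D5:**
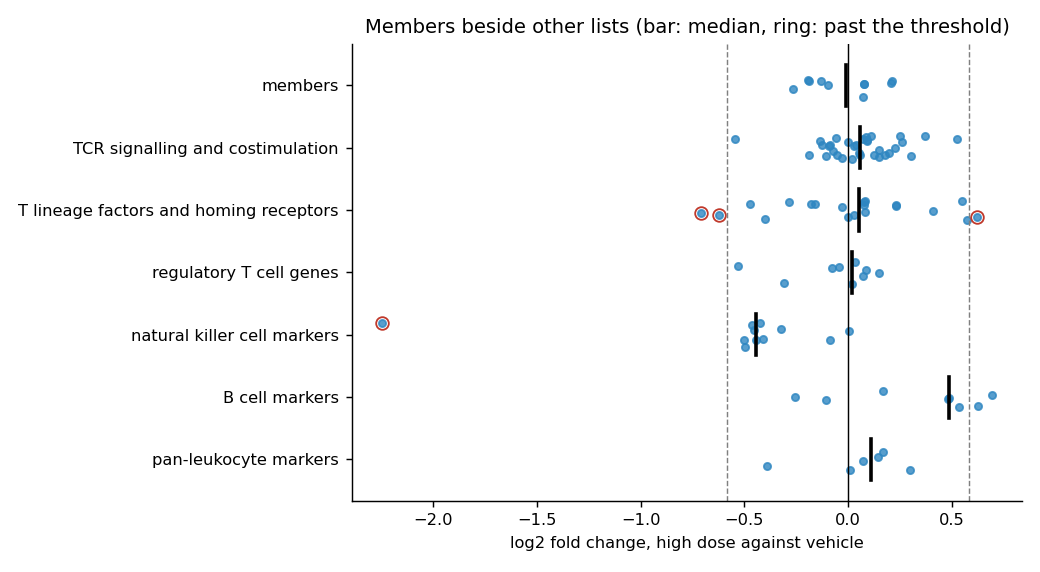
Log2 fold change at the high dose against vehicle (x axis) for the 10 genes (labelled members) and for 6 other gene lists (rows, one point per gene, black bar the median, red ring a called gene, dashed lines 1.5-fold). The 10 genes scatter around 0 with a median of -0.01, natural killer cell markers have a median of -0.44 and B cell markers one of 0.49.

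The medians of the natural killer and B cell markers lay farther from 0 than that of the 10 T cell genes. Of 11 natural killer cell markers 10 were lower at the high dose, with a median of -0.44 and limma's unadjusted p under 0.05 for 9, though 5 of the 11 alone were well above background on all arrays. Gzma, the granzyme A gene of natural killer and cytotoxic T cells, was called, and it fell from 4.77 ± 0.64 (SD, n = 5) to 2.52 ± 0.59 (n = 4), by 2.25 (adjusted p = 0.0021). Klre1, well above background on 6 of 18 arrays, differed by -0.50 (adjusted p = 0.0157). Prf1, the perforin gene, differed by -0.41 (adjusted p = 0.0409). Of 8 B cell markers 6 were higher at the high dose, with a median of 0.49, 0 called and the unadjusted p under 0.05 for 6. The 6 with such a p were not the same genes as the 6 that were higher. They included Cd22, which was lower, at -0.26 (adjusted p = 0.204), and not Cd79a, at 0.17 (adjusted p = 0.709). Pax5 was also lower, at -0.11 (adjusted p = 0.791). At the medium dose 3 of the 8 B cell markers were called as higher, Ms4a1 by 0.70, Cd79b by 0.70 and Fcer2a by 0.81 (adjusted p = 0.0258, 0.0419 and 0.0056). The mean change per mouse of the natural killer list was -0.43 to 0.31 in vehicle and -0.67 to -0.36 at the high dose, and that of the B cell list -0.46 to 0.35 and 0.22 to 0.50, so that both lists overlapped between groups. The difference between these lists and the T cell genes was not tested.

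Tissue make-up was checked with 4 further lists. Of 6 pan-leukocyte markers 5 were higher at the high dose, with a median of 0.11, 0 called and limma's unadjusted p under 0.05 for 2, Laptm5 at -0.39 (adjusted p = 0.113) and Rac2 at 0.30 (adjusted p = 0.313). At the medium dose 5 were higher, with a median of 0.27, 0 called and the unadjusted p under 0.05 for 5. Laptm5, lower at -0.29, was among the latter. The mean change per mouse of this list ran from -0.10 to 0.04 in vehicle and from -0.09 to 0.32 at the medium dose. Of 8 thymocyte markers 3 lay above and 5 below vehicle at the high dose, 0 were called and 1 had an unadjusted p under 0.05, Cd1d1 at -0.34 (adjusted p = 0.0320). Of these 8, Rag1, Rag2 and Arpp21 were not well above background on any array, and Ptcra on 1 of 18. Dntt, Cd1d1, Rmnd5a and Mns1 were well above background on all 18, and Dntt differed by -0.16 at the high dose (adjusted p = 0.558). Of 5 measured lymph node and lymphoid stroma markers 0 were called at the high dose, with the unadjusted p under 0.05 for 2, and 1 was called at the medium dose, where Cxcl13, a B cell attracting chemokine, fell by 0.63 (adjusted p = 0.0224). The lung markers were all well above background on all 18 arrays, and 7 of these 8 were below vehicle in the medium-dose group and 7 in the high-dose group, with limma's unadjusted p under 0.05 for 5 and 3 of the 8. Only Pecam1, an endothelial gene, was called, and it rose by 0.69 at the medium and by 0.74 at the high dose (adjusted p = 0.0010 and 0.0006). Cdh5, also an endothelial gene of this list, went the other way, at -0.23 and -0.10 (adjusted p = 0.439 and 0.817). The mean change per mouse of the lung list ran from -0.28 to 0.19 in vehicle and from -0.30 to 0.13 at the high dose.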

How the data were processed

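Lung RNA of 18 mice was hybridized to 1 two-colour array each on 3 slides, every slide holding all 4 groups. Array column and dose cannot be told apart for any gene, since each group had its own column on every slide. The authors deposited the scanner software's median signal intensities of both channels, with its own log10 ratio of both channels for each spot, and a table of log2 ratios. Following the study's methods, log2 ratios were taken from the median intensities with no background subtracted, then normalized by loess within arrays (R 4.3.3, limma 3.58.1). Outlier spots and control spots were left out, and spots of 1 probe were averaged. In Cy5, 51.5% to 61.1% of probes on an array were well above background. Precision is limited by the number of arrays. The study's MAANOVA test was not run, and limma's linear model with empirical Bayes over the 4 groups stands in for it. The script was tested on simulated data. P-values were adjusted by Benjamini-Hochberg over 55681 probes per comparison. Probes were named, and promoters taken, from RefSeq tables of GRCm38.p6.

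All 10 genes are described. Of each other list the text names the genes called in any comparison, or else up to 3 with the smallest p at the high dose, and markers of other cells may be named beside a member. Some further genes of the lists are named for their background level or because they went another way than the genes named. The values of 1 called gene of the lists are not reported here. The members and lists were chosen with earlier results of these data known. As alternatives, the background was corrected by normexp (offset 50), the authors' table or the scanner software's ratio was used, loess was replaced by median centring or followed by scale or Aquantile normalization, and Cy5 was used alone. Others blocked on slide, kept only bright probes or only the groups compared, dropped the fold limit, averaged a gene's probes, or left out each mouse. For correlations, mice were permuted within groups 100000 times.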

Additional observations from a re-analysis of the deposited data

Results flagged for a closer look

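In 40 tests for a mouse standing apart (10 genes in 4 groups, Dixon's ratio of gap to range), 2 passed the 95% critical value, and chance alone flags about 1 group in 20. For Cd3e, vehicle mouse 5 was the highest of its group at a log2 ratio of -0.61, with the others from -0.80 to -0.74 (ratio 0.711). For Zap70, high-dose mouse 20 was the highest of its group at -0.23, with the others from -0.69 to -0.64 (ratio 0.872). No value was left out for this.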

How the results depend on the processing

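Under 12 alternatives with all mice kept and with each of the 18 mice left out in turn, 0 of the 10 genes were called at any dose. Of 900 values of single genes 38 had another sign, none of them with an unadjusted limma p under 0.05 in either setting. The cause of these sign changes was not tested. Many of the 900 values could not change sign. Aquantile normalization, no fold limit, bright probes only and only the groups compared leave the difference as it is. So does leaving out a mouse of a group outside the comparison.

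Counts of called probes over the whole array moved with the processing. At the 3 doses in rising order, 50, 404 and 670 became 33, 696 and 1075 with the scanner software's ratio, 3, 32 and 80 with median centring, and 93, 1969 and 2325 with no fold limit. For high against low, 25 became 13, 0 and 16 with the scanner software's ratio, median centring and the Cy5 channel alone, and for the trend 623 became 976, 64 and 2174 with the scanner software's ratio, median centring and no fold limit. Without low-dose mouse 7, 4 probes were called for high against low. Aquantile normalization leaves log ratios as they are.

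Without low-dose mouse 7 the Cd3d difference at the low dose was 0.04, and without low-dose mouse 6 it was 0.45 (adjusted p = 0.568). The high-dose difference of Cd4 ran from -0.31 to -0.22 with single mice left out. At the high dose the dim probes of Cd247, Cd8a and Foxp3 moved to -1.46, 0.52 and 0.85 with the scanner software's ratio, and were -0.10, 0.21 and 0.12 with normexp. The mouse numbers differ between the groups and pair no mice, and the slide was used as a block instead.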
